A study of Arabidopsis thaliana with 6 samples.

Results

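The genes described are 7 genes of the sperm-cell programme of Arabidopsis pollen, namely DUO1, DAZ1, DAZ2, HAP2, GEX1, GEX2 and MGH3, and the neighbouring genes KPL and ARI14. They were taken by locus ID and not by a cutoff on a measured value, although earlier results of these data were known. They make up 9 of 60936 annotated IDs in all. Of these IDs, 25982 are protein-coding and not joined with another ID. GEX2, which occurs only under a joined ID, is not among the 25982. Small RNA was sequenced from sorted pollen of the Arabidopsis thaliana accession Col, from wild-type grains (3 libraries, numbered 15, 19 and 25) and from grains carrying paps1-3 (3 libraries, numbered 16, 20 and 26). The labels give pollen as the tissue, no further transgene or treatment, and 3 paired isolations in each of which a common pollen sample was sorted into the 2 genotypes. PAPS1, the gene mutated in paps1-3, codes for a poly(A) polymerase of the nucleus. The libraries were made from whole grains, so reads of the sperm cells and of the vegetative cell around them lie in the same library. Fewer cells of a type and less RNA per cell cannot be told apart in them. Separate plants are not stated for the isolations, so the p-values rest on a spread between samples that may be technical.

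A pollen grain holds a vegetative cell, which grows the pollen tube, and a pair of sperm cells, which fertilise the egg cell and the central cell. DUO1 is a MYB transcription factor that switches on much of the sperm-cell programme, and its messenger RNA is a known target of the microRNA miR159. Small RNAs of 21 and 22 nt are cut from double-stranded RNA by Dicer-like enzymes. In Arabidopsis sperm, KPL and ARI14 are known as a convergent gene pair whose transcripts give rise to a natural antisense siRNA that lowers ARI14.

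The sequences of DAZ1 and DAZ2 bear on what a 21-nt read can be assigned to, because both genes encode closely related zinc-finger proteins. In the RefSeq annotation of TAIR10.1, DAZ1 (AT2G17180) lies at chr2:7476662-7477683 on the minus strand and DAZ2 (AT4G35280) at chr4:16787280-16788283 on the minus strand, each with 1 exon. Their longest shared run, within the coding sequence of both, is 29 bases and stands in capitals below with the flanking coding bases, read on the strand of the gene. It covers chr2:7476919-7476997 and chr4:16787522-16787600 with the flanks.
DAZ1: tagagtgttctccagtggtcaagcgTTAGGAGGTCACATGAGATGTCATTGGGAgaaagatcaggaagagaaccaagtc
DAZ2: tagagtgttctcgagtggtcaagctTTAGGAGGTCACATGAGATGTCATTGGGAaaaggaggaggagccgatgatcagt
The capitals hold 9 windows of 21 bases that are the same in both genes. Of the 984 windows of 21 bases in the DAZ2 exon, 9 have a copy elsewhere in the TAIR10.1 genome on either strand, and the rest have none.

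DUO1 (AT3G60460, chr3:22342321-22343576, minus strand, 3 exons) is shown with miR159a because it is the gene among the 9 with a near match to this microRNA. The seed of miR159a, bases 2 to 8, is in capitals, and the capitals of the DUO1 site mark bases that pair with miR159a by Watson-Crick rules. The site lies in the coding sequence at chr3:22343375-22343395.
miR159a: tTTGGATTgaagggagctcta
DUO1 site: TgGAGCTCCaTTCgATCCAAA
The site had 3 mismatches, and the best window of the other 8 genes had 7 (GEX2) to 10 (ARI14). A window with at most 4 mismatches was found in 18 of 27550 genes, or 0.0653%. These matches describe the letters and do not show that a site was used.

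The libraries held 9312167 to 10139424 counted reads of 18 to 28 nt in wild type and 5562287 to 9922763 in paps1-3. Protein-coding IDs took 8.98 to 9.76% of reads in wild type and 5.55 to 7.26% in paps1-3, so a scale per counted read lies lower for most protein-coding genes in the mutant. Across the features tested at 21 nt, the median log2 change was −0.13 with the trimmed mean of M-values (TMM) scaling used here (3181 features), −0.82 per counted read (3213 features) and 0.29 with scaling to miRNA loci (3360 features). Over all lengths these medians were −0.15 and −0.94 over 13464 features each and 0.25 over 13107. Libraries 15 and 16 had the lowest 21-nt share of protein-coding reads of their genotypes, 10.8 and 11.8%, against 14.2 and 14.4% in the other wild-type libraries and 12.6 and 12.8% in the other paps1-3 libraries.

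All 9 genes had reads in every library over all lengths, and none of them had many. Their summed reads were 202, 188 and 185 in wild-type libraries 15, 19 and 25 and 79, 88 and 117 in paps1-3 libraries 16, 20 and 26. At 21 nt the sums were 32, 37 and 27 in wild type against 8, 5 and 21 in paps1-3. Set as reads-per-million (RPM) values of counted reads and per kb of exon, the wild-type level over all lengths was 4.11 ± 0.637 (SD, n = 3) for DAZ2, 3.29 ± 1.38 for MGH3 and 2.35 ± 0.0904 for GEX1. On the same scale it was 1.05 ± 0.202 for GEX2, 0.774 ± 0.0805 for KPL and 0.737 ± 0.378 for DAZ1. The lowest levels were 0.598 ± 0.178 for HAP2, 0.437 ± 0.127 for DUO1 and 0.312 ± 0.166 for ARI14, against a median of 0.268 over the 25982 protein-coding IDs. DAZ2 stood at the 95.6th percentile of these IDs and ARI14 at the 56.6th. Within this order the libraries of each gene overlapped those of the next gene, except that every GEX1 library was above every GEX2 library.

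**Figure D1:**
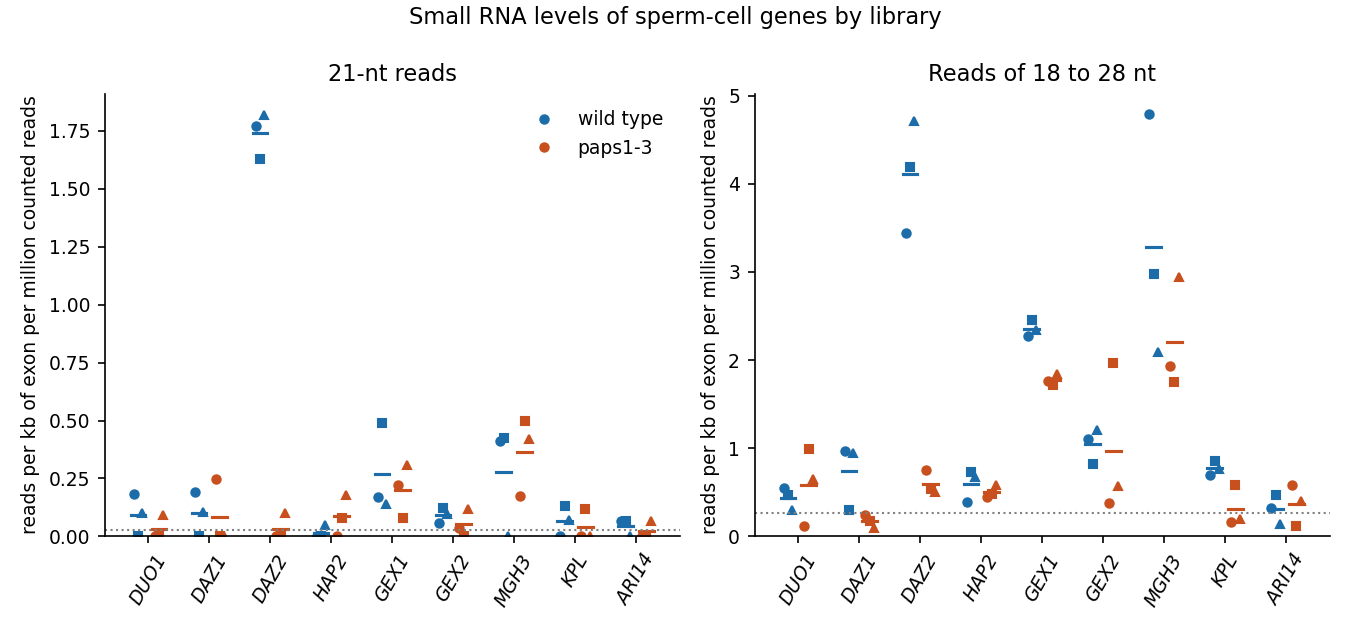
Small RNA level of each gene in each library, in RPM of counted reads per kb of exon, for 21-nt reads and for reads of 18 to 28 nt; points are libraries (circle, square and triangle for 15, 19 and 25 or 16, 20 and 26), short lines are means of 3, and the dotted line is the wild-type median of protein-coding IDs. At 21 nt DAZ2 stood at 1.63 to 1.82 in wild type and at 0 to 0.1 in paps1-3, while the other 8 genes overlapped between genotypes.

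In paps1-3 several genes had another place in this order, DAZ2, KPL and DAZ1 a lower one. On the same scale MGH3 was then highest at 2.20 ± 0.641, followed by GEX1 at 1.77 ± 0.0617 and GEX2 at 0.971 ± 0.871. DAZ2 came next at 0.598 ± 0.137, close to DUO1 at 0.586 ± 0.441, and stood at the 82.4th percentile of protein-coding IDs. HAP2 was at 0.504 ± 0.0699, ARI14 at 0.366 ± 0.233, KPL at 0.313 ± 0.232 and DAZ1 at 0.174 ± 0.0743.

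DAZ2 and DAZ1 are EAR-motif zinc-finger proteins that act below DUO1 and are needed for division of the male germ cell. DAZ2 was the gene with most 21-nt reads, and these reads were nearly gone in paps1-3. The wild-type libraries held 18, 16 and 17 reads of 21 nt and the paps1-3 libraries 0, 0 and 1. Every paps1-3 library was below every wild-type library, as was the case for 13.6% of features tested at 21 nt. In TMM-scaled counts-per-million (CPM) values of 21-nt reads, DAZ2 was at 11 ± 3.59 (SD, n = 3) in wild type against 0.302 ± 0.523 (SD, n = 3) in paps1-3. The fitted log2 change was −4.39 (SE 0.879, adjusted p = 0.00322, edgeR's quasi-likelihood test with Benjamini-Hochberg adjustment), or −4.26 relative to the median of all features. Pooled, the 1 read against 51 gave a paps1-3 to wild-type ratio of 0.0245 per counted read, with an exact 95% interval of 0.000608 to 0.143 that covers counting error only. Per 21-nt protein-coding read the ratio was 0.0361 (0.000895 to 0.210).

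DAZ2 was the only gene of the 9 that passed the filter on low counts at 21 nt, and it passed through its wild-type counts. Of the features tested at 21 nt, 4.68% were called lower and 14.5% higher. With no count filter all 9 genes were tested, and DAZ2 was called lower (log2 change −4.62, adjusted p = 0.000146, edgeR) while the other 8 had adjusted p from 0.678 to 0.951. Without filter 0.262% of 38973 features were called lower. The DAZ2 call at 21 nt was also made without libraries 15 and 16, with a log2 change of −3.71 (adjusted p = 0.00247, edgeR). The fitted size depended on the choice, from −2.70 with limma-trend (adjusted p = 0.014) to −6.73 without library 26 (adjusted p = 0.011, edgeR), where both remaining paps1-3 libraries had 0 reads and the fit gives no bound.

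The 22-nt reads of DAZ2 had the same order of genotypes. The wild-type libraries held 8, 17 and 17 reads of 22 nt and the paps1-3 libraries 2, 1 and 1. No library overlapped between the genotypes in TMM-scaled CPM, which were 12.8 ± 3.79 (SD, n = 3) and 2.67 ± 1.58 (SD, n = 3). How many features at 22 nt had all paps1-3 libraries below all wild-type ones was not counted, and at 21 nt it was 13.6% of those tested. DAZ2 did not pass the count filter at 22 nt, where 4.05% of 3231 tested features were called lower. Tested without filter, its log2 change was −2.52 with an adjusted p of 0.0676 (edgeR), and it was not called, while 0.245% of features were called lower. It did pass the filter and was called lower at 22 nt when library 15 (−2.51, adjusted p = 0.00491), library 16 (−2.91, adjusted p = 0.0295) or both (−3.01, adjusted p = 0.000484) were left out. It passed the filter but was not called without library 20 (−2.26, adjusted p = 0.0938) or library 26 (−1.76, adjusted p = 0.248). In all of these fits DAZ2 passed through its wild-type counts, as no paps1-3 library held more than 2 reads. Library 15 had the lowest wild-type count.

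Outside 21 and 22 nt, DAZ2 had few reads in either genotype. At 18 to 20 nt there were 4, 4 and 8 reads in wild type against 3, 2 and 1 in paps1-3, and at 24 nt 3, 3 and 2 against 1, 0 and 1. No library had a DAZ2 read of 25 to 28 nt. The 24-nt ratio per counted read was 0.312, with a counting interval of 0.0323 to 1.56, so a change was not detectable at this depth. Over all lengths DAZ2 had 35, 41 and 44 reads in wild type against 6, 3 and 5 in paps1-3. The genotypes did not overlap, and 17.3% of tested features had all paps1-3 libraries below all wild-type ones. This was a log2 change of −1.95 (SE 0.382, adjusted p = 0.00357, edgeR), from 3.12 ± 0.0259 to 0.863 ± 0.462 TMM-scaled CPM (SD, n = 3 each). Over all lengths 3.99% of the 13464 tested features were called lower and 14.3% higher.

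**Figure D2:**
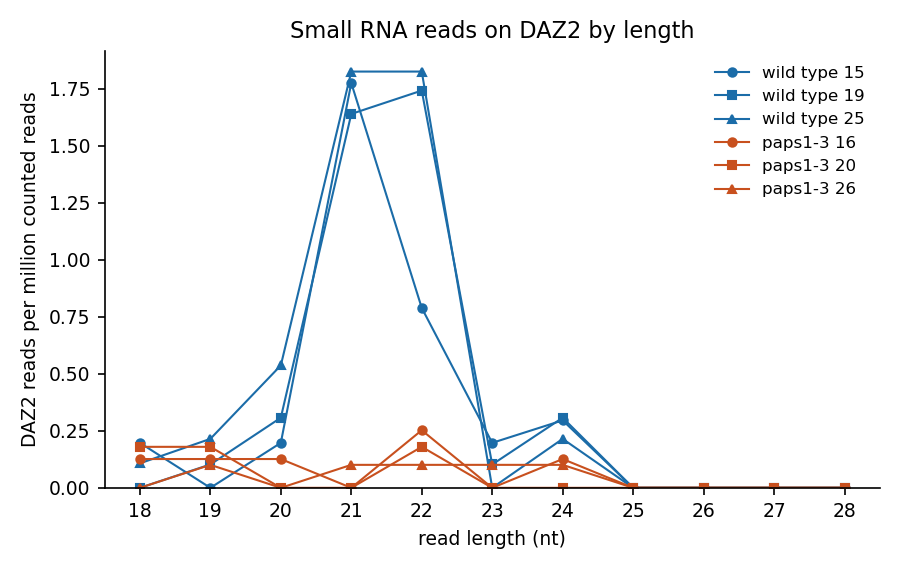
DAZ2 level in RPM of counted reads at each read length from 18 to 28 nt, with 1 line per library. The wild-type libraries peaked at 21 and 22 nt, where they held 26, 33 and 34 reads, and the paps1-3 libraries held 2, 1 and 2 reads there.

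The length make-up of DAZ2 in wild type differed from that of the other 8 genes as a sum. Reads of 21 and 22 nt were 93 of 120, or 77.5% (exact binomial 95% interval 69.0 to 84.6%), and 74.3, 80.5 and 77.3% in the 3 libraries. In the other 8 genes together, a list formed after these values were seen, they were 102 of 455, or 22.4% (18.7 to 26.5%). All other protein-coding IDs stood at 22.6%. In paps1-3, 5 of 14 DAZ2 reads were of 21 or 22 nt, or 35.7% (12.8 to 64.9%), against 23.9% in other protein-coding IDs. DAZ2 gave 56.2, 43.2 and 63.0% of the 21-nt reads of the 9 genes in wild type against 0, 0 and 4.76% in paps1-3.

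**Figure D3:**
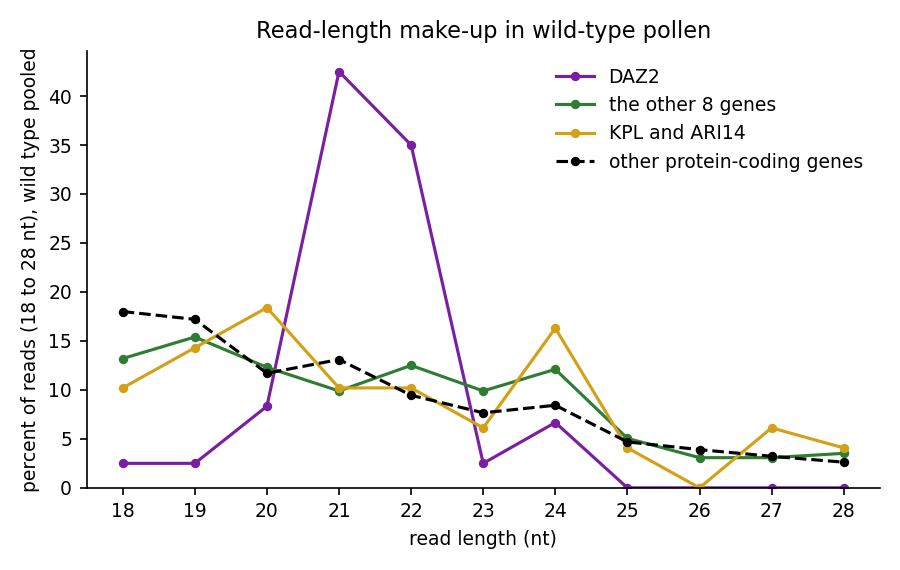
Percent of reads at each length from 18 to 28 nt in the pooled wild-type libraries, for DAZ2 (120 reads), the other 8 genes (455 reads), KPL and ARI14 (49 reads) and all other protein-coding IDs. DAZ2 had 42.5% of its reads at 21 nt, against 13.1% in other protein-coding IDs and 9.89% in the other 8 genes.

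Without DAZ2 a loss of 21-nt reads in paps1-3 was not detectable. The other 8 genes had 45 reads of 21 nt in wild type against 33 in paps1-3, a ratio of 0.915 per counted read (counting interval 0.566 to 1.47). All other protein-coding IDs had a ratio of 0.679 on that scale. Over all lengths the 8 genes had 455 and 270 reads, a ratio of 0.741 (0.635 to 0.863) per counted read and of 1.03 (0.887 to 1.21) per protein-coding read. Equal rates per protein-coding read lay within the interval. Of the 270 paps1-3 reads, 30 were 19-nt reads of 1 GEX2 segment in library 20, which the counting intervals treat as separate reads.

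**Figure D4:**
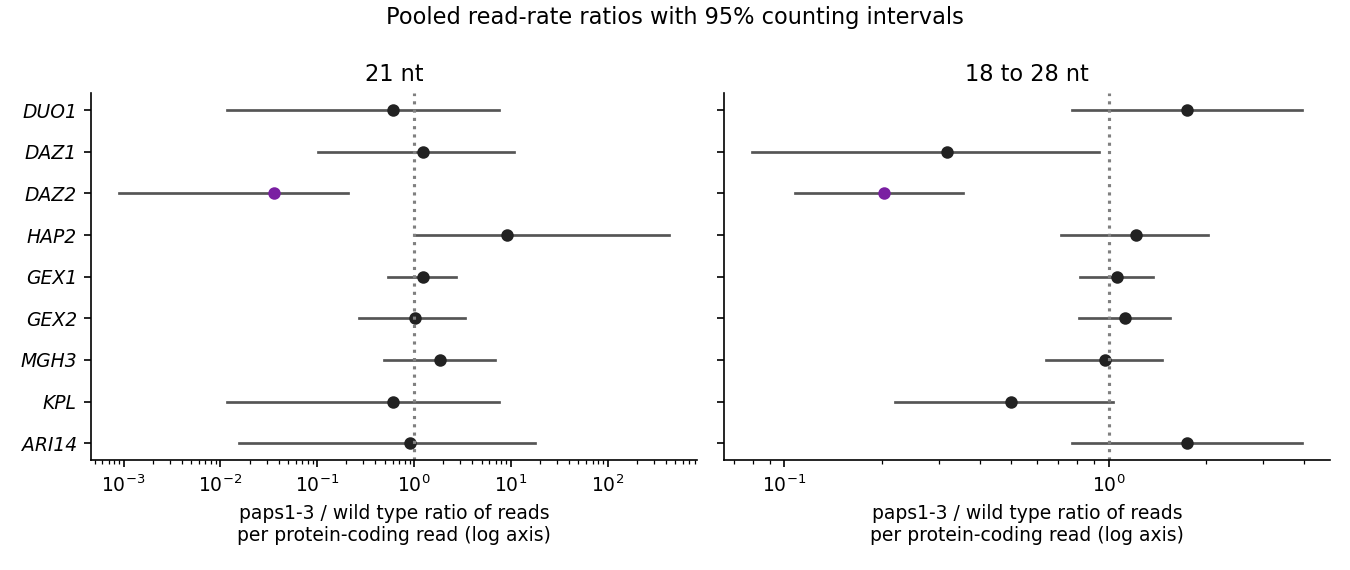
Ratio of the pooled read rates in paps1-3 and wild type, per protein-coding read of the same length, for each gene at 21 nt and at 18 to 28 nt, on log axes; lines are exact 95% counting intervals and the dotted line marks equal rates. The interval of DAZ2 lay below 1 in both panels (0.0361 at 21 nt and 0.203 over all lengths), and that of DAZ1 did so over all lengths (0.317). At 21 nt the interval of HAP2, with 1 and 5 reads, lay above 1 (1.03 to 435).

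Protein-coding genes rich in 21- and 22-nt reads gave a frame for DAZ2. Among 2044 protein-coding IDs with at least 100 wild-type reads, the median share of 21- and 22-nt reads was 23.3%, and DAZ2 stood at the 97.9th percentile. A further 41 IDs had a share at least as high as DAZ2. Over all lengths 14 of these 41 were called lower and 0 higher (edgeR, TMM), with a median log2 change of −0.74. Most of the 14 were near each other on chromosome 1, with locus IDs from AT1G62590 to AT1G63330, so the count does not stand for 14 scattered loci. Among the 2033 tested IDs with at least 100 wild-type reads, 176 were called lower and 504 higher, with a median of 0.12. Of the 41, only SPL2 (AT5G43270), a squamosa-promoter-binding factor and known miR156 target, was as low as DAZ2, at −2.0. TET12 (AT5G23030), a tetraspanin of sperm cells, was among them with a share of 83.1% and a log2 change of −0.66 that was not called (adjusted p = 0.0848, edgeR). This group was formed after the DAZ2 values were seen and was not tested. Its read minimum and its share were both set on wild-type reads alone.

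**Figure D5:**
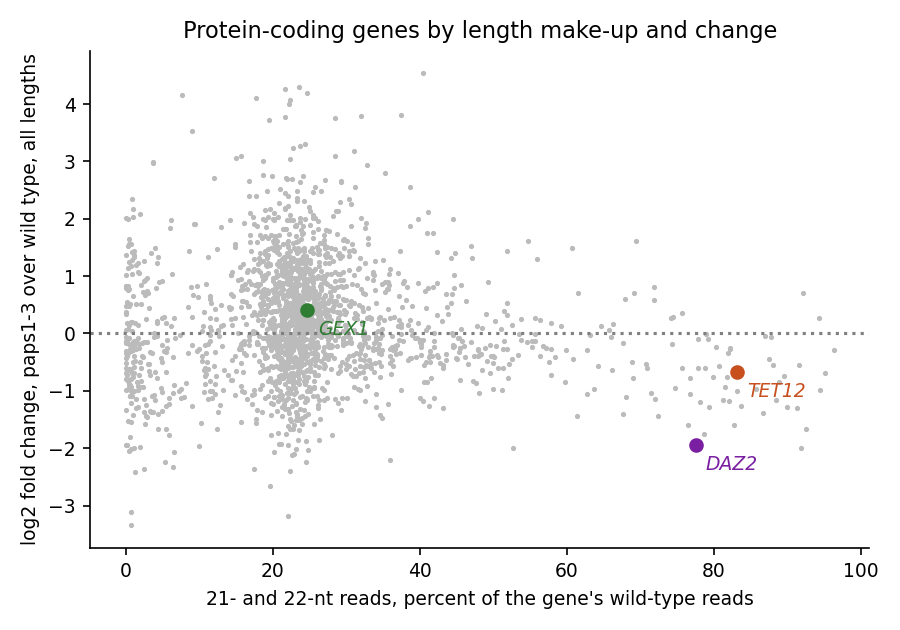
Protein-coding IDs with at least 100 wild-type reads, each a point, by the percent of their wild-type reads that were 21 or 22 nt and by their log2 change over all lengths, paps1-3 over wild type. DAZ2 stood at 77.5% and −1.95, TET12 at 83.1% and −0.66, and GEX1 at 24.7% and 0.41, near the middle of the cloud.

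DAZ1 had a lower read rate in paps1-3 too, on few reads and without passing a test. Its libraries held 10, 3 and 9 reads over all lengths in wild type against 2, 1 and 1 in paps1-3. The ratio was 0.227 per counted read (counting interval 0.0569 to 0.668) and 0.317 per protein-coding read (0.0794 to 0.934). DAZ1 did not pass the count filter, and in the fit without filter its log2 change of −1.28 had an adjusted p of 0.557 (edgeR). In TMM-scaled CPM its genotypes overlapped. At 21 nt it had 2, 0 and 1 reads in wild type against 2, 0 and 0 in paps1-3, and 13.6% (2.91 to 34.9%) of its wild-type reads were 21 nt against 42.5% (33.5 to 51.9%) in DAZ2. Reads of 21 and 22 nt were 6 of 22 wild-type DAZ1 reads, or 27.3% (10.7 to 50.2%).

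DUO1 was among the genes with fewest reads. Its libraries held 6, 5 and 3 reads over all lengths in wild type against 1, 6 and 7 in paps1-3, and the genotypes overlapped. Of the 14 wild-type reads, 9 were of 21 or 22 nt, or 64.3% (35.1 to 87.2%), an interval that lies above the 22.6% of other protein-coding IDs. Of the 14 paps1-3 reads, 6 were, or 42.9% (17.7 to 71.1%). The deposited table splits DUO1 into 3 segments without coordinates, and 8 of the 9 wild-type reads of 21 or 22 nt fell in the segment listed as the first. Which exon that is, and whether it holds the printed miR159 site, cannot be read from the table. Without count filter the log2 change over all lengths was 1.06 (adjusted p = 0.533, edgeR).

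The miR159 loci themselves varied widely between libraries of each genotype. MIR159a (AT1G73687) had 65, 530 and 252 reads of 21 nt in wild type against 36, 154 and 73 in paps1-3. Libraries 15 and 16 were lowest in each genotype, and libraries 19 and 20 highest. In each adjacent pair of library numbers the paps1-3 library had the lower raw count, not scaled for depth. Of the 3 loci, 2 were tested at 21 nt and 0 called, with 0 at an unadjusted p under 0.05 (edgeR), and MIR159a had a log2 change of −0.42 (adjusted p = 0.662). Total reads as the scale gave 0 calls as well. These fits did not pair libraries by isolation, so spread between isolations counted as error in them. The miR159 change within isolations is not given here.

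HAP2 and GEX2 encode sperm membrane proteins, HAP2 the fusogen that joins gamete membranes and GEX2 a protein of gamete attachment. HAP2 (AT4G11720, chr4:7063255-7066878, plus strand, 17 exons) had 9, 16 and 14 reads over all lengths in wild type against 8, 6 and 13 in paps1-3. The log2 change was 0.58 (adjusted p = 0.308, edgeR) with TMM scaling and −0.23 with total reads (adjusted p = 0.677), so its sign depended on the scaling and neither was called. At 21 nt HAP2 had 0, 0 and 1 reads in wild type against 0, 1 and 4 in paps1-3, a ratio of 9.19 per 21-nt protein-coding read (counting interval 1.03 to 435) and of 6.24 per counted read (0.698 to 295). At 22 nt it had 1, 1 and 2 against 0, 0 and 0. Its commonest reads were of 18 to 20 nt, 53.8% (37.2 to 69.9%) in wild type and 59.3% (38.8 to 77.6%) in paps1-3.

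GEX2 (AT5G49150, chr5:19924354-19929256, plus strand, 17 exons) occurs in the deposited table under an ID joined with AT5G49152, a non-coding RNA on the same strand, so reads of either cannot be separated. It had 38, 27 and 38 reads in wild type against 10, 37 and 19 in paps1-3. Library 20 stood apart, and its reads were concentrated in 1 place. The ninth of 14 listed segments held 30 of the 37 reads in library 20, all of them 19 nt long. In the wild-type libraries the same segment held 10, 12 and 11 reads of 19 nt, and in libraries 16 and 26 it held 1 and 2. Over all lengths the log2 change of GEX2 was 0.54 (adjusted p = 0.453, edgeR), and −0.23 (adjusted p = 0.718) without library 20. Per counted read the pooled ratio was 0.800 (counting interval 0.578 to 1.10).

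GEX1 (AT5G55490, chr5:22478712-22481937, minus strand, 4 exons) encodes a membrane protein of the nuclear envelope that takes part in nuclear fusion. It had the most reads of the 9 genes over all lengths, 53, 55 and 50 in wild type against 32, 22 and 42 in paps1-3. Its length make-up was close to that of other protein-coding IDs, with 24.7% (18.2 to 32.2%) of 21- and 22-nt reads in wild type and 25.0% (16.7 to 34.9%) in paps1-3. The log2 change was 0.41 (adjusted p = 0.314, edgeR) with TMM, −0.40 (adjusted p = 0.287) with total reads and 0.76 (adjusted p = 0.0481) with scaling to miRNA loci. The last was a call, on a scale that called 23.8% of features higher, and the others were not. Per protein-coding read the ratio was 1.06 (0.814 to 1.37).

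MGH3 (AT1G19890, chr1:6904963-6906028, plus strand, 4 exons) encodes a histone H3 variant of sperm chromatin and is a known DUO1 target. Its 35, 21 and 14 reads in wild type overlapped the 11, 7 and 21 in paps1-3. The log2 change was 0.20 (adjusted p = 0.786, edgeR) with TMM and −0.55 (adjusted p = 0.295) with total reads. At 24 nt it had 7, 4 and 4 reads in wild type against 1, 1 and 3 in paps1-3. The 24-nt share in wild type was 21.4% (12.5 to 32.9%), above the 8.43% of other protein-coding IDs, and 12.8% (4.30 to 27.4%) in paps1-3. None of the 9 genes passed the count filter at 24 nt, where 6.23% of 3593 tested features were called lower. In the fit without filter at 24 nt, none of the 9 was called and 0.492% of features were called lower, with MGH3 at a log2 change of −0.47 (adjusted p = 0.759, edgeR).

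KPL, or KOKOPELLI (AT5G63720, chr5:25506279-25508017, plus strand, 3 exons), is needed for fertilisation by both sperm cells, and ARI14 (AT5G63730, chr5:25508100-25509706, minus strand, 2 exons) encodes a putative ubiquitin ligase of the ARIADNE family. In TAIR10.1 they converge and leave a gap of 82 bases, with 0 bases of exon overlap. No joined ID of the table holds either gene. The table has no coordinates, so whether reads in the gap were counted, and under which ID, cannot be read from it. The pair had few 21-nt reads in either genotype. KPL had 0, 2 and 1 reads of 21 nt in wild type against 0, 1 and 0 in paps1-3, and ARI14 had 1, 1 and 0 against 0, 0 and 1. At 21 nt the libraries of the 2 genotypes overlapped in each gene.

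Taken as 1 locus, the pair held 1, 3 and 1 reads of 21 nt out of 16, 20 and 13 in wild type, and 0, 1 and 1 out of 9, 6 and 9 in paps1-3. Its 21-nt level was 1.01 ± 0.567 TMM-scaled CPM (SD, n = 3) in wild type against 0.829 ± 0.793 (SD, n = 3) in paps1-3 (exact two-sided permutation p = 0.9, smallest possible 0.1). The pooled 21-nt share was 10.2% (3.40 to 22.2%) in wild type and 8.33% (1.03 to 27%) in paps1-3. Per library the share was 9.65 ± 4.69% (SD, n = 3) and 9.26 ± 8.49% (SD, n = 3), with an exact two-sided permutation p of 1. Both tests shuffle the 6 libraries freely and take no account of the 3 isolations in which the genotypes were paired. A difference between genotypes was not detectable at this depth.

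Nor was the pair seen to be richer in 21-nt reads than other protein-coding IDs. Over the 6 libraries its 21-nt share was 9.45 ± 6.14% (SD) against 12.8 ± 1.39% (SD) in other protein-coding IDs, lower in 4 of 6 libraries (exact two-sided sign-flip permutation p = 0.188, smallest possible 0.0312). With reads of 20 to 24 nt as the denominator the share was lower in 6 of 6 libraries, 14.4 ± 8.48% against 24.8 ± 2.23% (exact permutation p = 0.0312). With 20- to 22-nt reads counted in place of 21 nt the difference turned, to 38.8 ± 19.7% against 35.0 ± 3.06% (exact permutation p = 0.656). These tests take the 6 libraries as separate, although they come from 3 isolations. Flipped by isolation, a test added after the data were seen, the differences had exact two-sided permutation p of 0.5, 0.25 and 1 in the order above, and 3 isolations allow none below 0.25.

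Over all lengths neither KPL nor ARI14 was called. KPL had 11, 13 and 11 reads in wild type against 2, 5 and 3 in paps1-3, as raw counts not scaled for depth. In TMM-scaled CPM the genotypes overlapped for KPL, at 0.787 to 0.984 in wild type and 0.342 to 1.04 in paps1-3. In RPM of counted reads they did not, at 1.08 to 1.33 against 0.253 to 0.899. How many features did so on that scale was not counted, and it lies lower for most protein-coding genes in paps1-3. KPL had a pooled ratio of 0.357 per counted read (counting interval 0.158 to 0.736) and of 0.498 per protein-coding read (0.220 to 1.03). Its log2 change was −0.67 (adjusted p = 0.391, edgeR) with TMM and −1.42 (adjusted p = 0.0502) with total reads. ARI14 had 5, 7 and 2 reads in wild type against 7, 1 and 6 in paps1-3 and did not pass the count filter. Without filter its log2 change was 1.09 (adjusted p = 0.516, edgeR), and whether it differs from that of KPL was not tested. Reads of 18 to 20 nt made up 64.3% (35.1 to 87.2%) of ARI14 reads in wild type and 85.7% (57.2 to 98.2%) in paps1-3, and 34.3% (19.1 to 52.2%) of KPL reads in wild type.

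The gene listed before KPL, MIR166g (AT5G63715), had 5746, 4837 and 4673 reads in wild type against 1237, 1107 and 1460 in paps1-3, of which 95.1 to 97.8% were 21 nt. The 21-nt reads of the pair, at most 3 in a library, were thus listed beside an ID with at least 1107 reads in every library. Copies of the MIR166g sequence elsewhere in the genome were not looked for, and the treatment of multiply mapped reads is not given. Whether these reads arose at this locus therefore cannot be told. The features listed next to DAZ2 had at most 10 reads in a library.

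Of 14 other sperm-cell genes, 4 were tested at 21 nt and 2 called lower, against 4.68% of all features, with a median log2 change of −0.74 against −0.13 over all features. PCR11 (AT1G68610), a cysteine-rich membrane protein and known DUO1 target, had 19, 41 and 48 reads of 21 nt in wild type against 3, 4 and 9 in paps1-3 (log2 change −1.71, adjusted p = 0.00772, edgeR). TET12 had 52, 56 and 81 against 14, 11 and 22 (−1.01, adjusted p = 0.0393). DAF1 (AT3G62230), an F-box protein with 393, 464 and 510 reads against 241, 211 and 401, was not called (0.30, adjusted p = 0.495). The PCR11 call held in 15 of 16 alternatives and was lost without library 16 (adjusted p = 0.0522). The TET12 call held in 7 of 16, and was lost, among others, with scaling to miRNA loci and without library 25, 16, 20 or 26 (adjusted p of 0.0517 to 0.224 where lost). With scaling to miRNA loci 1 of the 4 was called lower and 1 higher. Over all lengths 9 of the 14 were tested and 0 called, with 4 at an unadjusted p under 0.05 (edgeR), and 3 were called lower with total reads, as were 40.3% of features. A segment joined from TIP5;1, a tonoplast water channel, and its neighbour AT3G47450 was called higher over all lengths (0.82, adjusted p = 0.0212), but not with total reads (0.04, adjusted p = 0.922) or without library 25 or 26.

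Markers of other cell types gave the following values. Of 9 vegetative-cell genes, 5 were tested at 21 nt, 2 called higher and 1 lower, against 14.5% of all features called higher and 4.68% lower. PPME1, a pectin methylesterase, rose by 1.76 (adjusted p = 0.00257, edgeR) and AGL66, a MADS-box factor, by 1.95 (adjusted p = 0.00854). PTEN1, a lipid phosphatase, fell by 1.92 on the log2 scale (adjusted p = 0.00161). Over all lengths 9 were tested, 5 called higher and 1 lower, against 14.3 and 3.99% of all features, the higher ones being PPME1, AGL65 (1.81), AGL66, AGL30 (1.46) and AtVEX1 (2.37). With total reads AGL66 was not called at 21 nt (adjusted p = 0.0841) nor AGL30 over all lengths (adjusted p = 0.0855), and AGL66 at 21 nt was not called without library 19 or 26. All 9 had reads, and their sum ran from 1440 to 1720 RPM of counted reads in wild type and from 923 to 1430 in paps1-3. Most of these reads came from 1 gene, VGD1, so the sum does not stand for the set. VGD1 had 11149, 10049 and 11728 reads in wild type against 4970, 4534 and 9842 in paps1-3. It was not called with TMM (0.31, adjusted p = 0.543, edgeR) or total reads (−0.48, adjusted p = 0.124). Leaf photosynthesis genes summed to 13.1 to 17.9 RPM in wild type and 4.80 to 9.37 in paps1-3, with none of 8 IDs without reads. For the 7 tapetum genes the sums were 2.36 to 3.25 and 1.31 to 2.16. Of the leaf genes 3 were tested over all lengths and 0 called (edgeR), 1 at an unadjusted p under 0.05, and no tapetum gene passed the count filter. The part of these cell types in the DAZ2 result was not tested.

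Few genes of the pathways that KPL and ARI14 belong to had enough reads for a test. Of 15 other ARIADNE genes, none passed the filter at 21 nt and 3 did so over all lengths. ARI8 (AT1G65430) had 54, 43 and 50 reads in wild type against 31, 28 and 71 in paps1-3 and was the 1 called higher (0.87, adjusted p = 0.0294, edgeR), against 14.3% of all features, and it was 0.10 and not called with total reads. The call was also lost without library 19, 25, 16 or 26. Of 12 genes of natural antisense siRNA production and its Argonautes, 3 were tested at 21 nt and 0 called, with 0 at an unadjusted p under 0.05 (edgeR), where 4.68% of all features were called lower and 14.5% higher. The gene with most reads among them was AGO2, an antiviral Argonaute, with 151, 258 and 289 reads of 21 nt against 75, 95 and 131 (−0.16, adjusted p = 0.760). On total reads 2 of the 3 were called lower, as were 31.2% of features. Over all lengths a segment joined from DCL2, the Dicer-like enzyme of 22-nt siRNAs, and its neighbour AT3G03305 was called lower, with 20, 22 and 23 reads against 4, 4 and 1 (−1.67, adjusted p = 0.0479, edgeR). That call held in 5 of 16 alternatives and was lost whichever single library was left out, with log2 changes over the 16 of −2.45 to −0.89 (−0.89 without library 26).

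The 21-nt pattern of DAZ2 across the 6 libraries was most like that of EXO70H3 (AT3G09530), an exocyst subunit, with Pearson r of 0.996 on the log2 scale among 958 tested protein-coding IDs. AT1G01980 (r = 0.995) and AT3G43120 (r = 0.994) came next. EXO70H3 had 91, 107 and 95 reads of 21 nt in wild type against 8, 8 and 24 in paps1-3. The pattern of the KPL and ARI14 pair was most like that of RALFL9 (AT1G61566), a signalling peptide of the RALF family (r = 0.967), AT5G22960 (r = 0.932) and AT1G15350 (r = 0.889). These likenesses rest on 6 libraries that share the genotype split. Those of the pair rest on 0 to 3 reads of 21 nt in a library, so their ranking lies within counting error. Those of DAZ2 rest on 16 to 18 reads in wild-type libraries and 0 to 1 in paps1-3 libraries. Their r values of 0.994 to 0.996 are too close to rank the 3 genes. By length profile the pair was nearest to AT3G26670, AT4G34380 and BPM2, with summed differences of 25.1, 25.3 and 25.5 percentage points over 11 lengths among 1245 IDs with at least 300 reads. DAZ2 was nearest to AT3G44580 (16.1 points), AT3G44570 (18.9 points) and AT1G31990 (21.3 points).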

How the data were processed

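The authors deposited unnormalised read counts, 1 value per annotated segment at each length (18 to 28 nt), as the file headers show. Per the submitters' processing notes, Trimmomatic, BWA, SAMtools, bedtools and the build TAIR10 were used; versions, strand and the treatment of multiply mapped reads are not given in the sources used here. Counts were summed per ID over segments, and joined IDs stayed features of their own. Names, gene models, coordinates and sequences were taken from RefSeq's TAIR10.1, joined by locus ID only, as the files hold no coordinates.

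Changes were tested with edgeR 4.0.16 (R 4.3.3; robust quasi-likelihood test, TMM, filterByExpr with a minimum count of 10, no block) on the whole table, separately for 21, 22, 24 nt and all lengths, with Benjamini-Hochberg adjustment at 0.05. The pair's level and shares were compared with exact permutation tests over the 20 assignments of libraries or over sign flips. Intervals are exact 95% binomial or conditional binomial ones and cover counting error only. Likeness used log2(CPM + 1). Alternatives were DESeq2 1.42.0, limma 3.58.1 (trend, prior count 2), RLE factors, total reads, miRNA loci, no filter, a filter asking for a mean of 1 CPM and 10 counts in 3 libraries, a table without structural or organellar features, an isolation block, and libraries left out. The edgeR step was tested on simulated data. Tables, exact tests and figures used scipy 1.17.1, pandas 2.3.3, matplotlib 3.10.9 and numpy 2.4.6 under Python 3.11.15.

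Adjacent library numbers were taken as isolations for the block, since deviations from genotype means correlated at r of 0.451, 0.228 and 0.402 in the 3 adjacent pairs at 21 nt, above 0.1, and at −0.370 to 0.147 in other pairs. The genes and lists were chosen with earlier results of these data known. All 9 genes are named, and from each other list those called at 21 nt or over all lengths, or otherwise the one with most reads. DAF1, the group of 41 genes, the likeness of DAZ2 and the sums without DAZ2 were chosen after values were seen.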

Additional observations from a re-analysis of the deposited data

How the results depend on the processing

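DAZ2 was called lower at 21 nt in all 16 alternatives, with log2 changes of −6.73 (without library 26) to −2.70 (limma-trend) and adjusted p of 2.36e-05 to 0.0159, and over all lengths in all 16, with −2.75 to −1.58 and adjusted p up to 0.0471 (without paps1-3 library 26). The replicate block changed no call among the 9 genes. Calls among the 9 genes over all lengths numbered 1, and 2 with scaling to miRNA loci, which added GEX1 (0.764). At 22 nt the count was 0, and 1 without library 15, without library 16 or without both; leaving out 1 library gave 0 to 1. At 24 nt it stayed 0. With total reads the log2 change over all lengths turned to −0.225 for HAP2, −0.405 for GEX1, −0.173 for GEX2 and −0.547 for MGH3. With 1 library left out GEX2 ranged from −0.234 (without library 20) to 0.95 and MGH3 from −0.101 (without library 25) to 0.903. The pair's 21-nt difference of −0.178 CPM became 0.065 with miRNA loci, 0.154 without libraries 15 and 16, and −0.554 to 0.237 with 1 library left out. Its share difference of −0.388 points became 3.88 at 20 to 22 nt, 2.54 without libraries 15 and 16, and −4.09 to 4.24 with 1 library left out. Against other protein-coding IDs, −3.34 became 3.77 at 20 to 22 nt and −10.3 over reads of 20 to 24 nt, and −4.77 to −1.64 with 1 library left out. The cause of these changes was not tested. Adding joined IDs, or leaving them out for KPL and ARI14, gave no other value, because GEX2 occurs only joined and no joined ID holds KPL or ARI14. Depth limits every gene, and DAZ2 least at 21 nt, where no other gene exceeded 11 reads in a library. With all libraries DAZ2 did not pass the count filter at 22 nt, and at 24 nt it had at most 3 reads in a library.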
